A study of Mus musculus with 10 samples.

Results

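The last stage of bile acid synthesis, which shortens the sterol side chain and joins the product to an amino acid, was described here through 8 hepatic genes. The genes were chosen by name for their place in that pathway, with earlier results of these data known. They were Abcd3, Amacr, Acox2, Hsd17b4, Scp2, Slc27a5, Baat and Acot8, and all 8 were found among the 10913 genes of the expression table. Transcriptomes came from liver biopsies of wild-type C57BL/6 mice that had been fed a western diet for 12 weeks and had received no drug. Afterwards the mice were randomised, with stratification by the NAFLD activity score (NAS, a histological grade of fatty liver disease), to obeticholic acid (OCA), an agonist of the bile acid receptor FXR, or to vehicle. The 10 biopsies were from 3 mice that became OCA-responders, defined by a NAS of 3 or less at the end of treatment, 4 mice that became OCA-non-responders, and 3 mice of the later vehicle group. All groups shared genotype, strain, diet and time point. Responders against non-responders asks whether expression before treatment differed with the later response. The later OCA group against vehicle compares mice sampled before they were assigned, so a difference there is neither an effect of the drug nor a relation to response. Age and sex were not in the labels used here, and whether each biopsy came from a separate mouse is implied by the design but not labelled, so p-values measure the spread between these samples.

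Bile acid precursors made from cholesterol keep the long cholesterol side chain until the peroxisome removes part of it. The activated acid enters the peroxisome through ABCD3, is turned to the usable stereoisomer by AMACR, and is oxidised and cleaved in steps run by ACOX2, the D-bifunctional protein encoded by Hsd17b4, and SCPx, a thiolase encoded by Scp2. BAAT then transfers the bile acyl group from coenzyme A to an amino acid, which in mice is mainly taurine, SLC27A5 reactivates bile acids that return from the intestine so that they can be conjugated again, and the thioesterase ACOT8 can hydrolyse bile acyl-CoA to the free acid.

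Counts over the listed genes were 40609599 to 51259349 in responders, 40432530 to 60393369 in non-responders and 53892299 to 76529328 in the vehicle group. Rn45s, the precursor of the ribosomal RNAs, took 16.3% to 25.7% of the counts in responders, 10.97% to 23.5% in non-responders and 3.70% to 6.87% in the vehicle group. Its share was therefore higher in all 7 mice of the later OCA group than in all 3 vehicle mice before any drug was given. Hepatocyte markers had the highest sum of the cell type lists, and 7 of the 8 listed ones were found under their listed symbols. Their summed level was 3696 to 4340 CPM (reads of a gene scaled to the effective library size) in responders, 4056 to 4981 CPM in non-responders and 3352 to 3518 CPM in the vehicle group, so this sum was also higher in all 7 OCA mice. Single markers did not all follow the sum, as 5 of the 7 were higher and 2 lower in the later OCA group. The lower ones were Fgb, at a mean of 641 against 1073 CPM in vehicle mice, and Ttr, at 357 against 370 CPM. The Kupffer cell and macrophage sum was 39.8 to 54.4 CPM in responders, 59.9 to 69.5 CPM in non-responders and 54.3 to 73.7 CPM in the vehicle group, with 5 of 7 markers measured. The cholangiocyte sum (3 of 5 markers) was 21.3 to 27.8 CPM, 25.4 to 49.5 CPM and 38.1 to 46.3 CPM in the same order of groups, and the stellate cell sum (6 of 6) was 814 to 1005 CPM, 679 to 1211 CPM and 939 to 1257 CPM. The endothelial sum (5 of 5) was 183 to 243 CPM, 186 to 279 CPM and 176 to 235 CPM. Tf, Krt7, Epcam, Cd68 and Marco of these lists were not found under these symbols and were not analysed here. Of the lymphocyte and neutrophil list Ptprc alone was analysed. The part of ribosomal RNA share or of cell make-up in the differences reported here was not tested. In comparisons with vehicle mice, that share cannot be told apart from the group. In bulk tissue, fewer cells of a type and less RNA per cell cannot be told apart.

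The 8 genes differed widely in level, from ranks 77 to 8535 of the 10913 genes. On the per-length scale of fragments per kilobase of transcript and read depth (FPKM), Scp2 averaged 575 FPKM over the 10 biopsies and ranked 77 of 10913 genes. Abcd3 averaged 166 FPKM and Hsd17b4 averaged 165 FPKM, ranks 310 and 314. The remaining genes were far lower in level: Slc27a5 averaged 8.38 FPKM (rank 4125), Acox2 5.39 FPKM (rank 5146), Acot8 4.15 FPKM (rank 5760), Baat 1.81 FPKM (rank 7501) and Amacr 1.03 FPKM (rank 8535). Both genes of the conjugation step thus lay below the carrier and the enzymes of the last oxidation steps in transcript level.

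The order of these levels was largely the same in every biopsy. Scp2 was above Abcd3, Hsd17b4 above Slc27a5, Acot8 above Baat and Baat above Amacr in 10 of 10 biopsies. Neighbours that did not keep their order were Abcd3 and Hsd17b4, Acox2 and Acot8, and Slc27a5 and Acox2. Hsd17b4 had the higher FPKM in 2 of 3 responders and 4 of 4 non-responders, whereas Abcd3 had the higher FPKM in 3 of 3 vehicle mice. Acox2 was above Acot8 in 7 of 10 biopsies and Slc27a5 was above Acox2 in 9 of 10, the exception being a vehicle mouse.

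**Figure D1:**
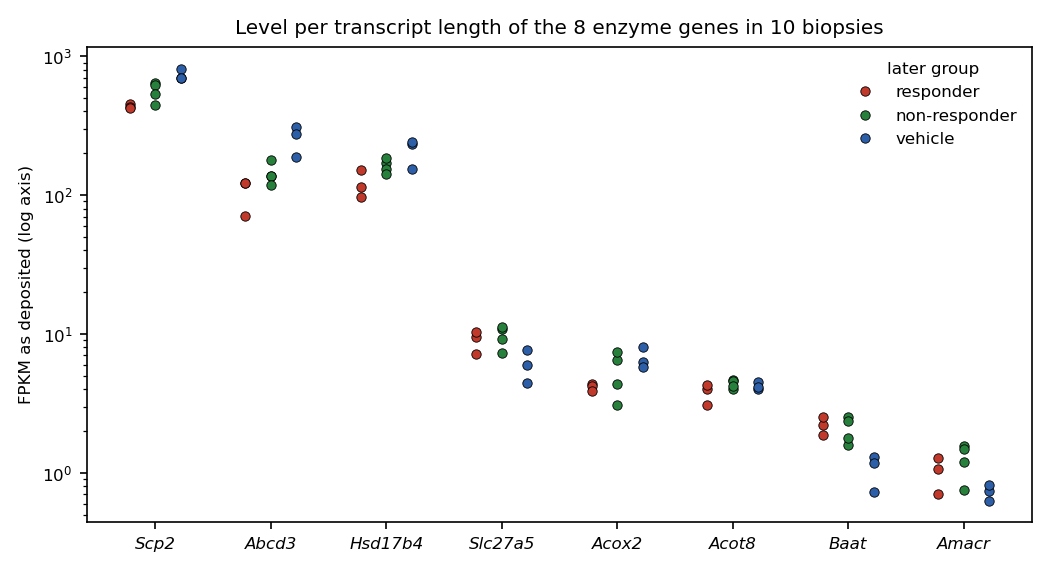
FPKM of each gene in each of the 10 biopsies on a log axis, coloured by later group (responder, non-responder, vehicle from left to right within a gene), with genes ordered by their mean. Scp2, Abcd3 and Hsd17b4 lie between 70.6 and 814 FPKM, and the other 5 genes lie between 0.629 and 11.3 FPKM.

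At the conjugation step, transcripts of both genes were more abundant in every mouse that later received OCA than in every vehicle mouse, and neither gene separated responders from non-responders. Baat (chr4:49489422-49506557, minus strand, GRCm38), which encodes the amino acid transferase, had 5.24, 4.15 and 6.34 CPM in responders, 4.94, 4.46, 3.32 and 3.88 CPM in non-responders, and 1.32, 2.34 and 2.16 CPM in the vehicle group. The lowest OCA mouse, at 3.32 CPM, was above the highest vehicle mouse. The later OCA group averaged 4.62 ± 0.993 CPM (SD, n = 7) and the vehicle group 1.94 ± 0.544 CPM (SD, n = 3). The log2 fold change was 1.25 with a standard error of 0.30, and edgeR's quasi-likelihood test with Benjamini-Hochberg adjustment over all genes gave an adjusted p = 0.0592, short of the threshold of 0.05. Slc27a5 (chr7:12988346-12998192, minus strand), which encodes the bile acyl-CoA synthetase, had 20.4, 24.98 and 30.6 CPM in responders, 25.4, 25.4, 23.0 and 19.1 CPM in non-responders, and 9.58, 16.6 and 13.1 CPM in the vehicle group. All 7 OCA mice were again above all 3 vehicle mice, by the narrow margin of 19.1 against 16.6 CPM at the closest pair. The log2 fold change of Slc27a5 was 0.88 (SE 0.21, edgeR adjusted p = 0.0607).

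Baat rested on few reads, 89 to 308 per biopsy, for which counting alone gives a coefficient of variation of up to 10.6%. The coefficient of variation between the 7 OCA mice was 21.5%. Slc27a5 had 646 to 1664 counts, a counting error of at most 3.93%, against 15.8% between the OCA mice. For both genes the spread between mice exceeded the counting error. Vehicle mouse 1 had the lowest level of both genes, while responder 3 had the highest.

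For the carrier that brings the substrate into the peroxisome, the difference between the groups lay in the opposite direction. Abcd3 (chr3:121758774-121815302, minus strand) had 292, 470.5 and 531 CPM in responders, 467, 587, 497 and 452 CPM in non-responders, and 594, 965 and 888 CPM in the vehicle group. No OCA mouse reached the lowest vehicle mouse, although non-responder 2 at 587 CPM and vehicle mouse 1 at 594 CPM were close. The mean was 471 ± 91.4 CPM (SD, n = 7) in the later OCA group and 815 ± 196 CPM (SD, n = 3) in the vehicle group. This was a log2 fold change of -0.79 (SE 0.20, edgeR adjusted p = 0.0718). With 10273 to 75580 counts, counting error of Abcd3 was at most 0.987%.

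Among the side chain enzymes, Amacr was higher in all 7 OCA mice, Scp2 was lower in all 7, and Acox2 and Hsd17b4 overlapped between the groups. Amacr (chr15:10981756-10996626, plus strand), the racemase, had 2.25, 3.14 and 4.21 CPM in responders, 4.04, 2.99, 4.08 and 2.20 CPM in non-responders, and 1.51, 1.76 and 2.01 CPM in the vehicle group. The OCA mice covered a wide range that began just above the highest vehicle mouse. Amacr had a log2 fold change of 0.90 (SE 0.31, edgeR adjusted p = 0.144), and the lowest count of 79 gives a counting error of 11.3%. Acox2 (chr14:8225511-8259353, minus strand), the oxidase of the first step, had 13.7, 12.3 and 12.7 CPM in responders, 16.7, 17.9, 12.0 and 8.92 CPM in non-responders, and 19.1, 14.9 and 14.1 CPM in the vehicle group. Responders were tightly placed below the vehicle range and non-responders spread across it. The log2 fold change of Acox2 was -0.25 for the later OCA group (SE 0.22, edgeR adjusted p = 0.570). Hsd17b4 (chr18:50128201-50196269, plus strand), whose product hydrates and dehydrogenates the chain, had 319, 457 and 392.02 CPM in responders, 457, 479, 438 and 429.6 CPM in non-responders, and 386, 582 and 612 CPM in the vehicle group. Vehicle mouse 1 was below 6 of the 7 OCA mice and the other vehicle mice were above all of them. Its log2 fold change was -0.31 (SE 0.17, edgeR adjusted p = 0.348).

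Scp2 (chr4:108043839-108144998, minus strand) had 1472, 1291 and 1435 CPM in responders, 1709.6, 1578, 1522 and 1331 CPM in non-responders, and 1725, 2005 and 1745 CPM in the vehicle group. Every OCA mouse was below every vehicle mouse, by 1709.6 against 1725 CPM at the closest pair. For Scp2 the log2 fold change was -0.30 (SE 0.13, edgeR adjusted p = 0.238). Scp2 makes the thiolase SCPx and the shorter sterol carrier protein from separate promoters, and a count per gene does not separate these products.

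Abcd3 and Scp2 were the genes lower in all 7 OCA mice, and their promoters are shown because both genes are regulated in liver by nuclear receptors, many of which bind the half-site AGGTCA. The windows are the 250 bases before the RefSeq gene start on GRCm38.p6, both on the minus strand and outside annotated exons, at chr3:121815303-121815552 for Abcd3 and chr4:108118548-108118797 for Scp2. The Scp2 window lies inside the limits of the GENCODE gene. Sequences run 5′ to 3′ and capitals mark the half-site:
Abcd3: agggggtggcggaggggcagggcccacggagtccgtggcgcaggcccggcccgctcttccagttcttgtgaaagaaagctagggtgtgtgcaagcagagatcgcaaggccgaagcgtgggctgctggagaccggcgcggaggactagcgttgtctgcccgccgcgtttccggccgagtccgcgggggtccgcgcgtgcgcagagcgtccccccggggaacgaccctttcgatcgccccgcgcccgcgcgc
Scp2: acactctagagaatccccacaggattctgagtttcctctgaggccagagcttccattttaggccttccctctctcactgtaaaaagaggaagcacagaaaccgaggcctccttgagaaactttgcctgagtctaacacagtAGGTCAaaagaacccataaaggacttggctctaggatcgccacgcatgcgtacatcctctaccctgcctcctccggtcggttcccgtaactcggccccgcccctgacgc
The Scp2 window holds 1 copy, which begins 109 bases upstream of the start, and the Abcd3 window holds none on either strand. AGGTCA or its reverse complement TGACCT occurred in 4607 of 32851 promoter windows of this length (14.02%). The Abcd3 window has 72.0% G and C bases and the Scp2 window 53.6%, against a median of 52.4% over all windows. A match of letters is a description and does not show binding.

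Acot8 (chr2:164792765-164804882, minus strand), the thioesterase that opposes conjugation, had 5.63, 5.60 and 4.54 CPM in responders, 5.34, 4.43, 5.64 and 5.43 CPM in non-responders, and 4.30, 4.79 and 4.52 CPM in the vehicle group. Over the 7 OCA mice its coefficient of variation was 9.97%. In 5 of 7 OCA mice it was above all vehicle mice, with a log2 fold change of 0.21 (SE 0.21, edgeR adjusted p = 0.633). Its exons overlap those of Snx21 on the opposite strand, and the sources used here do not say whether strand was used in counting, so its counts are uncertain.

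**Figure D2:**
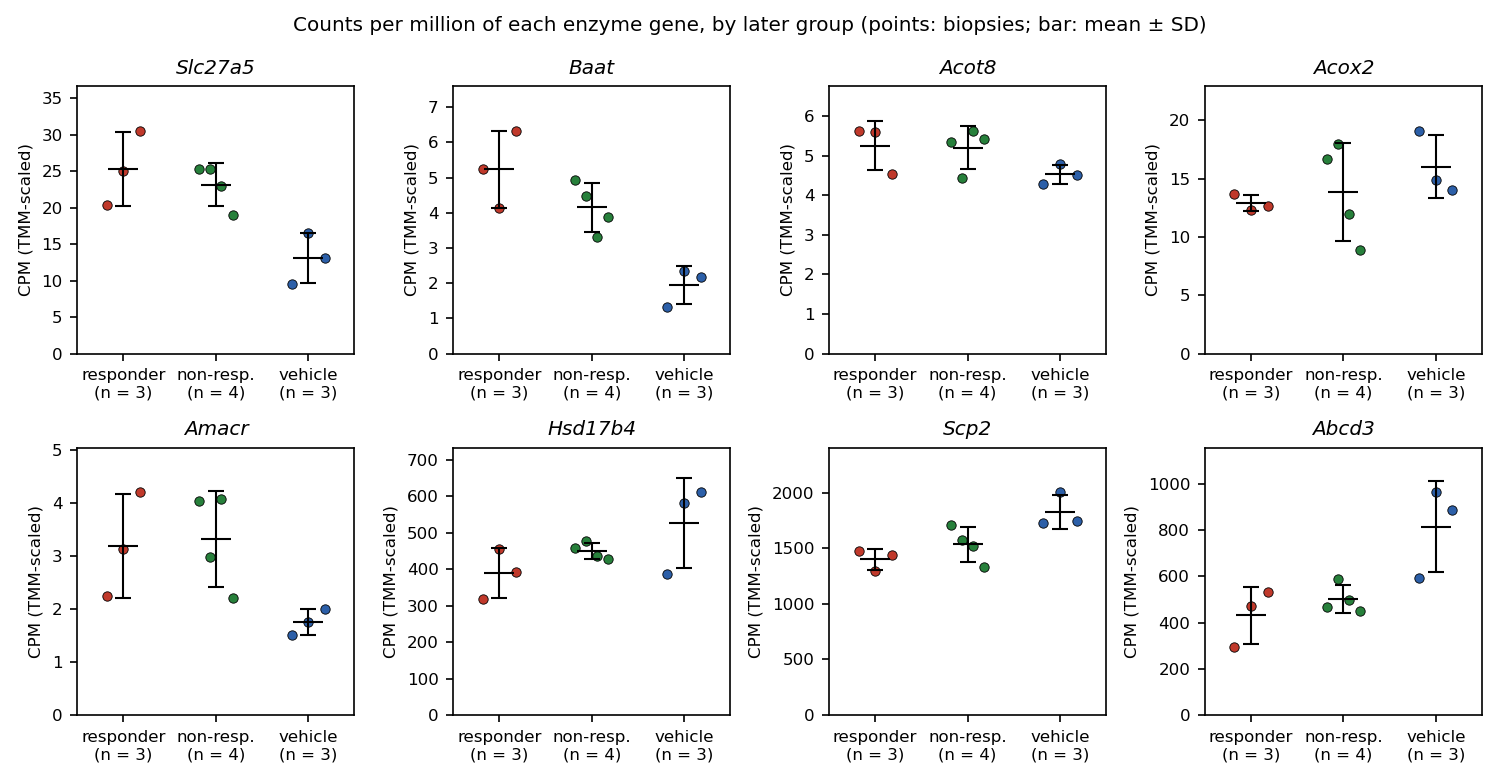
TMM-scaled CPM of the 8 genes (one panel each, linear axis from 0) in responders (n = 3), non-responders (n = 4) and the vehicle group (n = 3), where points are biopsies and bars give the mean and SD. Baat, Slc27a5 and Amacr are higher in the 7 OCA mice than in the 3 vehicle mice, with OCA minima of 3.32, 19.1 and 2.20 CPM against vehicle maxima of 2.34, 16.6 and 2.01 CPM, and Abcd3 and Scp2 are lower.

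Over the comparison of the later OCA group with vehicle, 0 of the 8 genes passed the adjusted threshold in edgeR, against 129 of all 10844 genes tested (1.19%, with 0.848% higher and 0.341% lower). At an unadjusted p under 0.05, 5 of the 8 passed, against 19.2% of all genes. Groups did not overlap for 3 genes in the direction of higher OCA levels (Baat, Slc27a5 and Amacr), where 5.51% of all genes did so, and for 2 genes in the direction of lower OCA levels (Abcd3 and Scp2), where the share was 4.77%. For each of these 5 genes the exact permutation test over samples gave p = 0.0167 (two-sided), which is the minimum for 7 mice against 3. Because the 8 genes were chosen with earlier results of these data known, the shares beside them are a description and not a test of the set. The median log2 fold change was -0.022 over the 8 genes, 4 above 0 and 4 below, and 0.0026 over all genes. The median over all genes was between -0.033 and 0.064 within each of 5 bins of FPKM level.

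The call for 3 of these genes depended on the tool. DESeq2 called Baat, Slc27a5 and Abcd3 (6.13% of all genes called), a single edgeR fit over all 10 biopsies called the same 3 (4.38%), and limma on log2(FPKM + 1) called Baat and Slc27a5 (2.4%). A stricter filter on counts in edgeR also called Baat and Slc27a5 (2.49%), and limma with a pseudocount of 0.1 called Baat (1.79%). Over 21 alternatives the adjusted p in edgeR, limma or DESeq2 was 0.00113 to 0.696 for Baat, 0.00342 to 0.633 for Slc27a5 and 0.0164 to 0.812 for Abcd3, while their directions held. With the Rn45s share as a covariate in edgeR the log2 fold change was 1.00 for Baat, 0.92 for Slc27a5, 1.30 for Amacr, -0.39 for Abcd3 and -0.15 for Scp2, with adjusted p of at least 0.633 for each, and 0 genes of the table passed. Because the share itself did not overlap between OCA and vehicle mice, this fit cannot tell it apart from the group. The count of 129 genes was 20 without responder 2 or vehicle mouse 1, 9 without responder 3 or non-responder 3, and 1 without vehicle mouse 2 or vehicle mouse 3, and 0 of the 8 genes passed in any of these fits.

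Between responders and non-responders, none of the 8 genes differed beyond the spread between mice. The edgeR test called 0 of 10826 genes (0%) and 0 of the 8, limma called 0, DESeq2 called 273 (2.52%) and 0 of the 8, and an unadjusted p under 0.05 was reached by 13.9% of all genes and by 0 of the 8. The groups overlapped for all 8 genes, against 7.65% of all genes without overlap and higher in responders and 6.64% without overlap and lower. The largest difference by log2 fold change was that of Baat, with 5.24 ± 1.10 CPM in responders (SD, n = 3) and 4.15 ± 0.704 CPM in non-responders (SD, n = 4), a log2 fold change of 0.34 with a 95% interval of -0.30 to 0.97 (edgeR adjusted p = 0.630). Slc27a5 had a log2 fold change of 0.13 (interval -0.33 to 0.59).

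Values of the peroxisomal genes were small and mostly negative, with none past the test. The log2 fold change was -0.21 for Abcd3 (interval -0.68 to 0.26), -0.21 for Hsd17b4 (-0.56 to 0.14), -0.13 for Scp2 (-0.45 to 0.19) and -0.11 for Acox2 (-0.70 to 0.49), with edgeR adjusted p between 0.581 and 0.888. Amacr had -0.055 (-0.85 to 0.74) and Acot8 had 0.013 (-0.55 to 0.57), with edgeR adjusted p of 0.962 and 0.987. Except for Scp2, the interval of every gene included differences of more than 0.5 on the log2 scale in some direction. Those of Amacr and Acot8 did so in either direction. Exact permutation tests gave two-sided p from 0.171 (Hsd17b4) to 0.971 (Acox2 and Amacr), with a minimum of 0.0571 for 3 mice against 4.

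**Figure D3:**
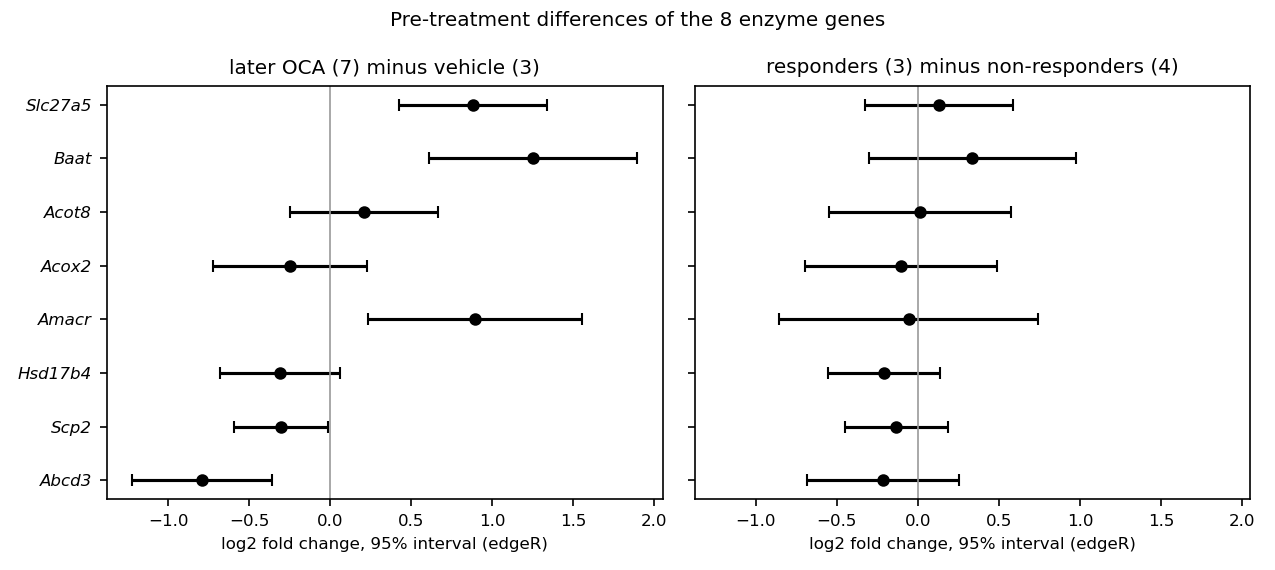
Log2 fold changes of the 8 genes with 95% intervals from edgeR, for the later OCA group minus the vehicle group (left) and for responders minus non-responders (right). On the left the intervals of Baat (1.25), Amacr (0.90) and Slc27a5 (0.88) lie above 0 and those of Abcd3 (-0.79) and Scp2 (-0.30) below, and on the right every interval includes 0.

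Each class of OCA mice was also set against the same 3 vehicle mice, so that these values share their controls. In responders the log2 fold change was 1.43 for Baat (SE 0.35, edgeR adjusted p = 0.0552), 0.95 for Slc27a5 (SE 0.26, 0.0733), -0.92 for Abcd3 (SE 0.27, 0.0812) and 0.85 for Amacr (SE 0.36, 0.179). In non-responders it was 1.11 for Baat (SE 0.30, edgeR adjusted p = 0.176), 0.83 for Slc27a5 (SE 0.22, 0.175), -0.70 for Abcd3 (SE 0.19, 0.179) and 0.93 for Amacr (SE 0.31, 0.225). Among the 8 genes 0 passed in either comparison, against 488 of 10785 genes (4.52%) in responders and 5 of 10832 (0.0462%) in non-responders. Without overlap, 3 of the 8 genes were higher and 3 lower in responders than in vehicle mice, with shares over all genes of 16.3% and 16.4%, and Acox2 was among these genes. In non-responders 3 were higher and 2 lower without overlap, with shares of 8.76% and 7.64%. In responders against vehicle mice DESeq2 (14.4% of all genes) and the single fit (8.56%) called Baat, Slc27a5 and Abcd3, and limma with a pseudocount of 1 (6.51%) and the stricter filter (7.78%) called Baat. In non-responders against vehicle mice DESeq2 called Baat, Slc27a5 and Abcd3 (3.53%). Without vehicle mouse 1, Abcd3 alone passed in responders and 848 genes did, and without responder 3 or vehicle mouse 3 the count of all genes was 3 or 0.

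Ratios of gene pairs within a library do not depend on how libraries are scaled, and 6 such comparisons were made. The ratio of Acot8 to Baat sets transcripts of the thioesterase against those of the conjugating enzyme. Its log2 value was 0.11, 0.43 and -0.48 in responders, 0.11, -0.0099, 0.77 and 0.48 in non-responders, and 1.70, 1.03 and 1.07 in the vehicle group. The mean was 0.20 ± 0.40 (SD, n = 7) in the later OCA group and 1.27 ± 0.38 (SD, n = 3) in the vehicle group, a difference of -1.07 without overlap (exact permutation test, two-sided p = 0.0167, adjusted over the 6 tests 0.1). In counts, Acot8 had 0.716 to 1.70 reads per Baat read in OCA mice and 2.05 to 3.26 in vehicle mice. Because this ratio reuses the Baat counts, it is not separate from the Baat difference (log2 fold change 1.25, against 0.21 for Acot8). Acot8 counts are also uncertain, as its exons overlap those of Snx21. The ratio of Baat to Slc27a5, the transferase against the ligase that feeds it, was -2.40 ± 0.27 (SD, n = 7) in the later OCA group and -2.76 ± 0.14 (SD, n = 3) in the vehicle group on the log2 scale, a difference of 0.37 with overlapping values (exact permutation test, two-sided p = 0.0333, adjusted 0.1).

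The ratio of Acox2 to Hsd17b4, consecutive steps of the oxidation, averaged -5.00 ± 0.36 (SD, n = 7) in the later OCA group and -5.02 ± 0.60 (SD, n = 3) in the vehicle group, a difference of 0.021 (exact permutation test, two-sided p = 0.967). Between responders and non-responders the differences were -0.32 for Acot8 to Baat, 0.21 for Baat to Slc27a5 and 0.17 for Acox2 to Hsd17b4. Their exact permutation p-values were 0.343, 0.343 and 0.629, and none of the 6 ratio comparisons passed 0.05 after adjustment.

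**Figure D4:**
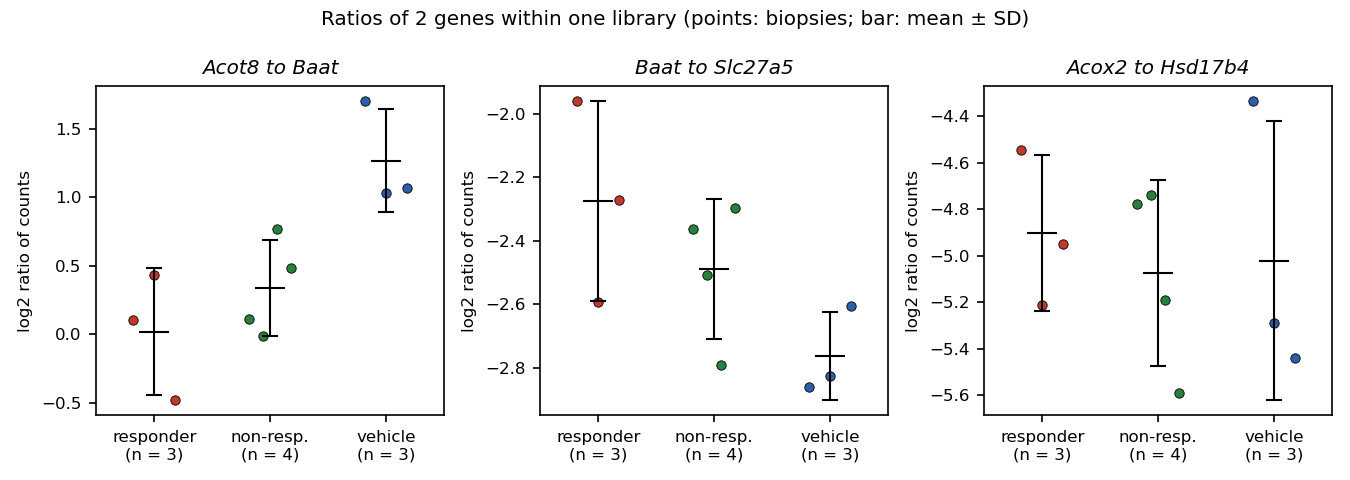
Log2 ratios of read counts of gene pairs within a library, in responders (n = 3), non-responders (n = 4) and the vehicle group (n = 3), where points are biopsies and bars give the mean and SD. The Acot8 to Baat ratio is at most 0.77 in the 7 OCA mice and at least 1.03 in the 3 vehicle mice, and the other ratios overlap.

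Variation within groups was not alike for all 8 genes. The coefficient of variation of CPM had a median over the genes of 18.9% in responders, 12.5% in non-responders and 20.1% in the vehicle group. Among non-responders Hsd17b4 varied least (4.86%) and Acox2 most (30.2%), and the low value of Acox2 belonged to non-responder 4. In responders Acox2 varied least (5.32%) and Amacr most (30.7%). Vehicle mouse 1 had the lowest value of the 10 biopsies for 4 of the 8 genes and the highest for 1, Acox2, while responder 3 had the highest for 3 genes.

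Over the 10 biopsies the 8 genes did not share one profile. Pearson r between pairs of them ran from -0.64 (Abcd3 with Acot8) to 0.93 (Baat with Slc27a5). Their mean standardized profile therefore averages profiles that ran in opposite directions. The genes whose log2 CPM profile was most like that mean were Phyh (Pearson r = 0.96), Nit2 (0.93), Daxx (0.92), Got2 (0.92) and Carhsp1 (0.91), among 8569 genes with a mean of at least 1 FPKM. For single genes the most alike were Azgp1 for Baat (0.99), Gcdh for Slc27a5 (0.99), Rab18 for Abcd3 (0.97), Pex7 for Hsd17b4 (0.97), Mpeg1 for Acox2 (0.95), Clpb for Scp2 (0.93), Aldoa for Amacr (0.93) and Oxsr1 for Acot8 (0.88). These are the highest of many values over only 10 libraries that share the split between OCA and vehicle mice, and they serve as a description.

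Genes upstream of and around the side chain enzymes were read from lists of the pathway. In the comparison of later OCA mice with vehicle mice, 0 of 10 measured genes that start bile acid synthesis or modify its ring passed the test. Of these, 6 had a positive and 4 a negative log2 fold change, with a median of 0.15, against 0.0026 over all genes. Hsd3b7, which acts early on the ring, averaged 121 ± 17.2 CPM in the later OCA group (SD, n = 7) and 56.1 ± 64.1 CPM in the vehicle group (SD, n = 3), with overlapping values (1.11, edgeR adjusted p = 0.243). Cyp2c70, which makes muricholic acids in mice, had 0.90 (edgeR adjusted p = 0.309), Cyp7a1 had -0.48 (edgeR adjusted p = 0.723) and Cyp7b1 had -0.45 (edgeR adjusted p = 0.699). For taurine supply 0 of 5 measured genes passed. Slc6a6, the taurine transporter, averaged 154 CPM in the later OCA group and 219 CPM in the vehicle group, a log2 fold change of -0.51 without overlap (edgeR adjusted p = 0.0815), and Csad, the decarboxylase of taurine synthesis, had 0.60 (edgeR adjusted p = 0.324).

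Among the close relatives of the 8 genes, other peroxisomal oxidases, thiolases and carriers, 0 of 10 passed and 9 of 10 had a positive log2 fold change, with a median of 0.20. Acox3, an oxidase of branched chains, had 1.15 (edgeR adjusted p = 0.112). Of the other thioesterases and acyltransferases of the list, 0 of 8 measured genes passed. Acnat1, a peroxisomal acyltransferase related to Baat, averaged 3.50 CPM in the later OCA group and 1.60 CPM in the vehicle group (log2 fold change 1.13, edgeR adjusted p = 0.113), and Crot, the carnitine octanoyltransferase, averaged 58.7 CPM and 93.5 CPM in the same order (-0.67, edgeR adjusted p = 0.106). Positive and negative changes were equally frequent in this list, 4 of each.

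Nuclear receptors and factors that regulate bile acid and peroxisomal genes gave 0 of 7 past the threshold and 6 of 7 positive log2 fold changes, with a median of 0.47. Hnf4a, a hepatocyte transcription factor needed for expression of Baat and Slc27a5 in mouse liver, averaged 705 CPM in the later OCA group and 438 CPM in the vehicle group without overlap (log2 fold change 0.69, SE 0.16, edgeR adjusted p = 0.0585). Nr1h4, which encodes FXR, the target of OCA, averaged 10.3 CPM and 5.98 CPM in the same order, also without overlap (0.78, edgeR adjusted p = 0.138). Between responders and non-responders 0 genes of these 5 lists passed in edgeR, and the list of ring enzymes had 8 of 10 genes higher in responders with a median of 0.30. Akr1c6 of that list averaged 2812 CPM in responders and 2038 CPM in non-responders without overlap (0.47, edgeR adjusted p = 0.352). Over all genes, 7.65% were higher in responders without overlap. Cyp7a1, which starts the classic pathway, had 0.63 (edgeR adjusted p = 0.439). Cyp7b1 of the alternative pathway averaged 13.7 ± 16.1 CPM in responders (SD, n = 3) and 7.59 ± 2.26 CPM in non-responders (SD, n = 4), with overlapping values (0.85, edgeR adjusted p = 0.603). The 2 ring genes with negative values were Cyp8b1 and Akr1d1. Cyp8b1, the sterol 12-alpha-hydroxylase that directs synthesis to cholic acid, had -0.44 (edgeR adjusted p = 0.728). Akr1d1, a reductase of the ring, had -0.046 (edgeR adjusted p = 0.964). Crat of the thioesterase and acyltransferase list was lower in responders without overlap, at 5.32 CPM against 14.2 CPM (-1.40, edgeR adjusted p = 0.397). Over all genes, 6.64% were lower without overlap.

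**Figure D5:**
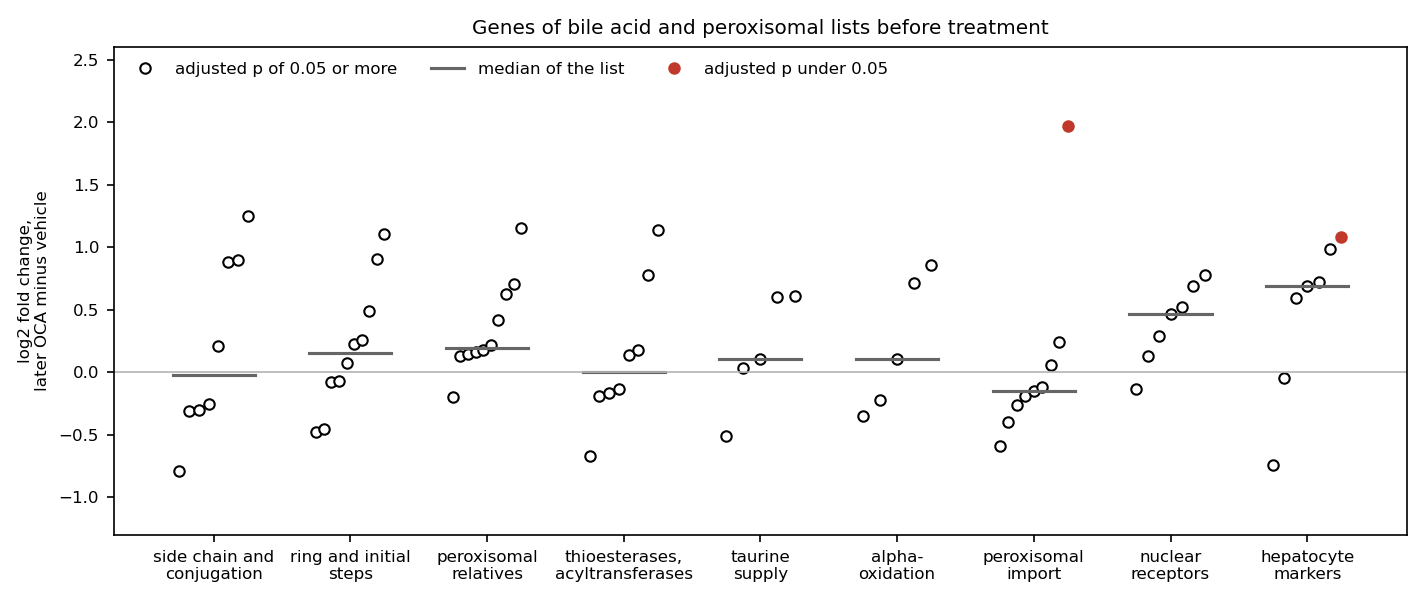
Log2 fold change of the later OCA group minus the vehicle group for each measured gene of 9 lists, where filled points passed the adjusted threshold in edgeR and lines give list medians. The 8 side chain and conjugation genes spread from -0.79 to 1.25 around a median of -0.022, and the medians of the nuclear receptor and hepatocyte marker lists are 0.47 and 0.69.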

How the data were processed

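Liver RNA of 10 biopsies was sequenced. Per the paper's methods, read quality was assessed in FastQC 0.11.7 and adapters were removed in Trimmomatic 0.38 by the authors, who used HISAT2 2.1.0 for alignment to mm10 and StringTie for abundance. Use of strand in counting is not stated, and the labels name a stranded kit beside another one. The authors deposited whole read counts, FPKM values and quantile-normalized log2(FPKM + 1) values per gene, and left out genes with a zero, so low genes passed only if read in every biopsy. The deposited folds, scores, p-values and adjusted p-values of the authors' own comparisons were not used.

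Counts were tested with edgeR 4.0.16 in R 4.3.3 (TMM, filterByExpr with minimum count 10 and total 15, quasi-likelihood test, Benjamini-Hochberg over all genes, threshold 0.05), each fit holding only the groups compared. All 8 genes passed the filter in every fit. CPM used TMM over all biopsies. Single values and ratios used two-sided exact permutation tests. Alternatives were DESeq2 1.42.0, limma 3.58.1 on log2 FPKM with pseudocounts of 1 and 0.1, other scalings and filters, a fit over all biopsies, the Rn45s share as covariate, replicate numbers as a block, and each replicate left out. Tests were tried on simulated counts. There edgeR recovered 21% of 2-fold and 80% of 4-fold changes between responders and non-responders, and 41% and 88% for OCA against vehicle. No biopsy repeated another: the median chi-square per gene between biopsies of a group was 9.13 to 33.5, against 0.455 from counting alone.

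The 8 genes and the 13 other lists were chosen with earlier results of these data known. Named genes were the 8, up to 4 genes of each list with the smallest p in each main comparison, any called gene of a list, and those of most similar profile. Outside this rule, Cyp8b1 and Akr1d1 were named as the 2 ring genes lower in responders than in non-responders, and Rn45s for its share of the counts. Positions are from GENCODE M21 on GRCm38, and promoters are from RefSeq on GRCm38.p6, where 4 of the 8 genes matched.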

Additional observations from a re-analysis of the deposited data

How the results depend on the processing

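The fewest counts in a biopsy were 79 for Amacr, 89 for Baat and 192 for Acot8, a counting error of at most 11.3%, 10.6% and 7.22%, and the groups held 3, 4 or 7 mice. The later OCA against vehicle differences of Baat, Slc27a5, Amacr, Abcd3, Scp2 and Acot8 kept their direction in all 21 alternatives. The cause of the changes below was not tested.

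DESeq2 called 273 genes between responders and non-responders (0 of the 8), 665 for OCA against vehicle (3 of the 8), 1548 in responders (3) and 382 in non-responders (3) relative to vehicle. The single fit over all biopsies called 475, 928 and 11 genes in the comparisons with vehicle, with 3, 3 and 0 of the 8. The stricter filter called 214 (OCA against vehicle, 2 of the 8), 684 (responders against vehicle, 1 of the 8) and 9 (non-responders against vehicle). Limma with a pseudocount of 1 called 262 (2 of the 8) for OCA against vehicle, 710 (1 of the 8) for responders and 16 for non-responders. With 0.1 it called 195 (1 of the 8) for OCA against vehicle and 241 for responders. With the Rn45s share as covariate 0 genes were called in each comparison with vehicle, where the share did not overlap and cannot be told apart from the group.

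With the Rn45s covariate the sign turned for responders against non-responders in Acox2 (0.31), Amacr (0.13) and Acot8 (-0.0089), for OCA against vehicle in Hsd17b4 (0.19) and Acox2 (0.17), for responders against vehicle in Hsd17b4 (0.31), and for non-responders against vehicle in Hsd17b4 (0.11) and Acox2 (0.35). For responders against non-responders Amacr turned with limma (0.010 with pseudocount 1, 0.019 with 0.1) and Acot8 with upper quartile scaling (-0.026) and the stricter filter (-0.0065).

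The replicate block on label numbers gave, relative to vehicle, 6 genes for OCA, 74 for responders and 0 for non-responders, and 0 of the 8 genes. Correlations of same-numbered deviations were -0.073 to 0.055, so the label numbers gave no sign of a pairing. Bracketed numbers in the sample titles were not interpreted, and other structure such as shared cages was not examined.

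Leaving out each replicate gave 0 to 1 genes between responders and non-responders and, relative to vehicle, 1 to 158 for OCA, 0 to 848 for responders (0 to 1 of the 8) and 2 to 8 for non-responders. For responders against non-responders the ranges were -0.032 to 0.27 (Slc27a5), -0.39 to 0.0055 (Abcd3), -0.27 to 0.032 (Acox2), -0.30 to 0.15 (Amacr) and -0.066 to 0.11 (Acot8). Ratio differences were 0.29 to 0.45 (Baat to Slc27a5, OCA against vehicle), -1.18 to -0.85 (Acot8 to Baat, OCA against vehicle), -0.19 to 0.36 (Acox2 to Hsd17b4, OCA against vehicle), -0.0057 to 0.33 (the same, responders against non-responders), 0.057 to 0.37 (Baat to Slc27a5, responders against non-responders) and -0.53 to -0.068 (Acot8 to Baat, responders against non-responders). Leaving Rn45s out of the counts, an alternative chosen after seeing the data, changed no call of the 8 genes.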

Other observations

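Further peroxisomal and hepatocyte genes were read in the comparison of later OCA mice with vehicle mice. In the list of peroxisomal matrix import, 1 of 9 measured genes passed. Pex26, the membrane anchor of the import ATPases, averaged 1.42 ± 0.414 CPM in the later OCA group (SD, n = 7) and 0.363 ± 0.0264 CPM in the vehicle group (SD, n = 3), a log2 fold change of 1.97 (edgeR adjusted p = 0.0336), and it is a gene of very low level, 0.245 FPKM on average. The call was lost without responder 2, responder 3, non-responder 3 or any of the 3 vehicle mice (edgeR adjusted p of up to 0.157). Pex7, the receptor that brings in the enzyme PHYH, averaged 53.3 CPM and 80.3 CPM in the same order (-0.59, edgeR adjusted p = 0.162), and the median of the list was -0.15. Branched-chain fatty acids are shortened by alpha-oxidation before they meet several of the same enzymes, and 0 of 5 genes of that list passed, with Aldh3a2, a fatty aldehyde dehydrogenase, at 0.86 (edgeR adjusted p = 0.141) and Phyh at 0.11.

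Of the hepatocyte markers, 1 of 7 measured genes passed. Ahsg, a secreted plasma protein, averaged 148 CPM in the later OCA group and 69.7 CPM in the vehicle group (log2 fold change 1.08, edgeR adjusted p = 0.0280), a call lost without responder 3, non-responder 3 or any of the 3 vehicle mice (edgeR adjusted p of up to 0.138). Alb, the albumin gene, had 0.72 (edgeR adjusted p = 0.0855), and 5 of 7 markers had a positive log2 fold change. Fgb, a fibrinogen chain, ran the other way without overlap, at 641 CPM in the later OCA group and 1073 CPM in the vehicle group (-0.74, edgeR adjusted p = 0.139). Lists of other liver cell types had 0 genes past the threshold in this comparison. In responders against vehicle mice, Spp1 of the cholangiocyte list averaged 7.94 CPM in responders and 16.6 CPM in the vehicle group (log2 fold change -1.08, edgeR adjusted p = 0.0423). Reln of the stellate cell list averaged 361 CPM and 578 CPM in the same order (-0.69, edgeR adjusted p = 0.0470), while Ahsg (1.14, edgeR adjusted p = 0.0360) and Pex26 (1.86, edgeR adjusted p = 0.0427) passed there in the other direction. With each of the 6 mice left out in turn, Ahsg, Reln and Spp1 each passed only without vehicle mouse 1, and Pex26 in 0 of 6.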
